A study of Mus musculus with 12 samples.

Results

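The genes described here are 9 grouped as genes of the epithelia of the brain's fluid spaces and borders: Ttr, Kcnj13, Folr1, Kl, Clic6, Prlr, Cdh1, Mpzl2 and Foxj1. The grouping does not mean that each of them marks such cells in these libraries. They were taken by symbol from a table of read counts for 21872 genes, and all 9 were present. The members were chosen by their own counts, as genes whose levels differed between libraries, regions or conditions, so their folds, and the calls and p-values printed with them, describe these libraries and are not independent evidence of a difference. The samples were bulk RNA of prefrontal cortex (PFC) or striatum, dissected at postnatal day 24 from C57BL/6J mice. The lesioned mice, labelled ADHD, had received 6-hydroxydopamine (6-OHDA), a toxin taken up by dopamine neurons that destroys them, as a model of attention-deficit/hyperactivity disorder. There were 3 libraries each from lesioned PFC, control PFC, lesioned striatum and control striatum, 12 in all. No label states the dose, route or age at 6-OHDA treatment, what the controls received, or how many mice stand behind a library. The p-values therefore measure only the spread between libraries, which may be technical.

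The choroid plexus is a folded sheet of epithelium that hangs into the brain ventricles and secretes cerebrospinal fluid. Its cells make transthyretin (Ttr), the carrier of thyroid hormone and retinol-binding protein, in very large amounts, together with the apical potassium channel Kir7.1 (Kcnj13), folate receptor alpha (Folr1), klotho (Kl), the chloride intracellular channel protein Clic6 and the prolactin receptor (Prlr). The ventricle walls are lined by ependymal cells, whose beating cilia depend on the transcription factor Foxj1. E-cadherin (Cdh1) and Mpzl2 are adhesion molecules of epithelia. E-cadherin is also made by the barrier cells of the arachnoid, a layer of the meninges that cover the brain. Neither PFC nor striatum is an epithelium, but the striatum borders the lateral ventricle and the cortex carries meninges on its surface.

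The 9 genes did not share 1 pattern. Ttr, Kcnj13, Folr1 and Kl were dominated by control striatal library 2, and Ttr also by lesioned PFC library 2. Clic6, Prlr and Foxj1 were higher in striatum than in PFC in both conditions. Cdh1 and Mpzl2 were present in 9 libraries and nearly absent from the 3 of lesioned striatum, where Kcnj13 had no read at all. In bulk tissue, fewer cells of a type and less RNA per cell cannot be told apart.

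Total counts ran from 15078631 to 20925452 per library, so 3 counts, used as the floor of detection, stood for 0.148 to 0.204 CPM (counts scaled to one common library total). Floors and counting intervals cover counting error only. Within striatum the libraries were uneven, and this touches every gene below. Over 36 other choroid plexus genes, the mean log2 CPM was 4.26 in control striatal library 2, against 2.28 and 2.53 in the other controls and 1.76 to 2.20 in lesioned striatum. The same library had the lowest mean of the controls for striatal projection neuron genes (7.15, against 7.71 and 7.82) and the highest for cortical excitatory neuron genes (5.29, against 2.22 and 3.43). Lesioned striatal library 1 had the highest mean for projection neuron genes (9.53, against 8.20 and 8.73) and the lowest for genes of the hypothalamus and basal forebrain border (2.12, against 4.04 and 3.52). Summed over the choroid list, the level was 883.2 to 1979 CPM in control striatum, 811.3 to 913.3 CPM in lesioned striatum and 649.2 to 706.4 CPM in PFC, and PFC libraries had up to 5 of the 36 genes at 0 and lesioned striatal libraries up to 2, among them Slc16a8. The most abundant gene of the list, Enpp2, alone had a mean of 338.4 CPM in control PFC and 317.1 CPM in lesioned PFC. It stood at 964.9 CPM in control striatal library 2. The sum therefore says little about the less abundant genes of the list. Where a fold or a level rests on control striatal library 2, its value without that library is given too.

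Promoter sequences of 3 members, Kcnj13, Kl and Prlr, were matched in RefSeq tables of GRCm38.p6. They are shown because Kcnj13 and Kl stood high together in control striatal library 2, whereas Prlr did not. Each holds the 250 bases before an annotated start, 5′ to 3′ on the gene's own strand, with matches to the searched motifs in capitals. Kcnj13 lies at chr1:87394730-87394979 on the minus strand, Kl at chr5:150952357-150952606 and the Prlr window, the second of 3 annotated starts, at chr15:10223656-10223905, both on the plus strand.
Kcnj13: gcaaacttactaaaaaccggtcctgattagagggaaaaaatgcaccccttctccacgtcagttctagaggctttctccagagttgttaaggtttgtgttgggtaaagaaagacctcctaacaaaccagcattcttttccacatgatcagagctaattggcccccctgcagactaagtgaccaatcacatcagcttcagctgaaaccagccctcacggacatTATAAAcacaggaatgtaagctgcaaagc
Kl: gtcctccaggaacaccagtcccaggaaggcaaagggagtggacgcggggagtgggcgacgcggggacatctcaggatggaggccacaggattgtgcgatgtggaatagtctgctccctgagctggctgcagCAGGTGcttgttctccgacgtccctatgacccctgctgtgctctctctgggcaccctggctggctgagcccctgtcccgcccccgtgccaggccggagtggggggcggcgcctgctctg
Prlr: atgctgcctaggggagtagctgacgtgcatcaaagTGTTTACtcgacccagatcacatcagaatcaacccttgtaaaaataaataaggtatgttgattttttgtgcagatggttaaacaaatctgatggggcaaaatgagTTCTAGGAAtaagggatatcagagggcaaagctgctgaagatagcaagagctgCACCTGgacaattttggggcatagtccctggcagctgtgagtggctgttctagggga
The motifs searched on both strands were TAATCC (OTX-type homeobox), GTAAACA (forkhead), CACCTG (the E-box of Snail and Zeb repressors), TTCNNNGAA (STAT) and TATAAA, a core promoter box. Among 32851 promoter windows of this length they occurred in 6.25%, 3.17%, 17.2%, 7.02% and 12.4%. The Kcnj13 window held TATAAA once and none of the others. The Kl window, rich in G and C (66.8%, against a median of 52.4% over all windows), held the E-box once, read here as its reverse complement CAGGTG. The Prlr window held 1 forkhead match (as TGTTTAC), 1 STAT match and 1 E-box, and the windows of the other 2 Prlr starts held none of the 5 motifs. Kcnj13 and Kl thus shared no motif of this search, and a match is a description of letters only.

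**Figure D1:**
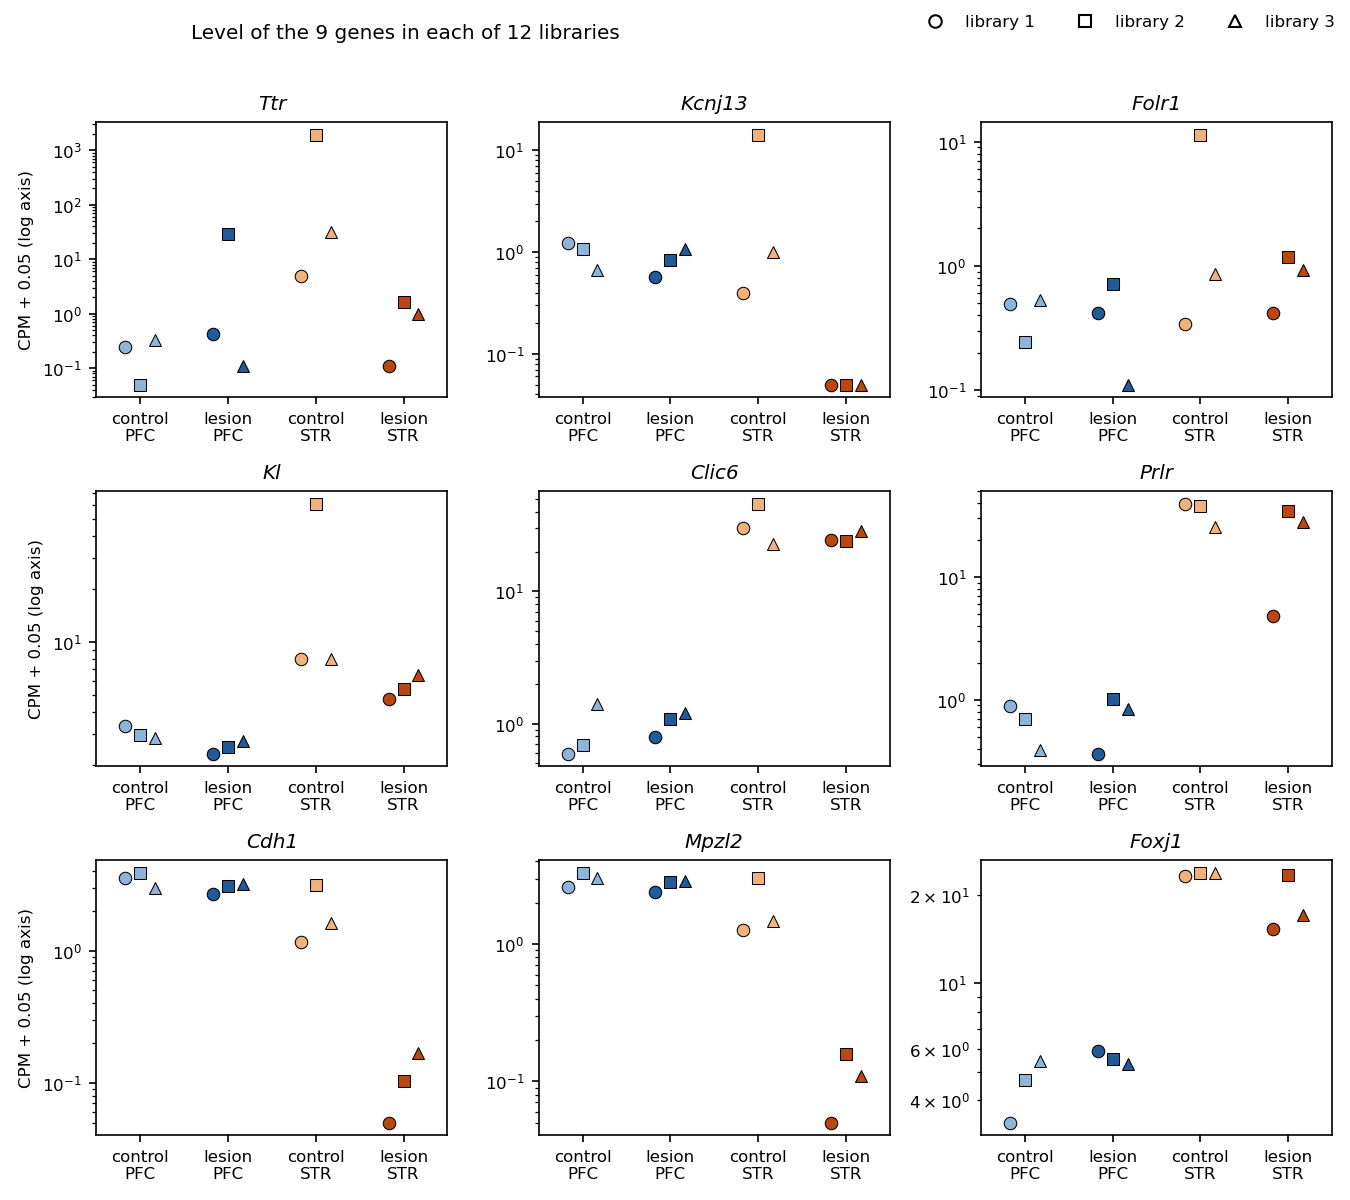
Each panel plots 1 gene as CPM + 0.05 on a log axis for the 12 libraries, with symbols for the library number and colours for the group (STR, striatum). Library 2 of control striatum stands above the rest for Ttr, Kcnj13, Folr1 and Kl, the 3 lesioned striatal libraries lie lowest for Kcnj13, Cdh1 and Mpzl2, and Clic6, Prlr and Foxj1 divide by region.

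Ttr (chromosome 18, 20665280 to 20674321, plus strand) had the widest range of the 9. In control striatum it stood at 4.84, 1956 and 32.1 CPM in libraries 1 to 3, and in lesioned striatum at 0.0614, 1.61 and 0.936 CPM. Control PFC gave 0.198, 0 and 0.272 CPM and lesioned PFC 0.368, 29.0 and 0.0605 CPM. All control striatal libraries therefore lay above all lesioned ones, but control library 2 alone held 33996 of the 34711 Ttr reads of its group, and lesioned PFC library 2 held 480 of 488. The 2 groups of PFC overlapped, and the lower levels there were 0 to 7 reads, near the floor. The fitted lesion effect in striatum was -9.54 on the log2 scale (SE 2.56), and -4.37 (SE 0.97) without control striatal library 2.

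Kcnj13 (chromosome 1, 87386363 to 87394729, minus strand) had 6, 248 and 19 reads in control striatum and 0, 0 and 0 in lesioned striatum. Lesioned PFC held 10, 13 and 17 reads and control PFC 24, 16 and 9. Lesioned striatum was thus the only one of the 4 groups without a Kcnj13 read, and its 3 libraries lay below all 9 others. Set against the floor of 3 counts over the group, control striatum was at least 87.3-fold higher (at least 11.8-fold without library 2), control PFC at least 16.8-fold and lesioned PFC at least 13.3-fold. Kcnj13 fell below the filter on low counts in the striatal fit. Its exons overlap those of Gigyf2 on the opposite strand, and because the strand setting of the counting is not given, reads of that gene cannot be told apart from its own.

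Folr1 (chromosome 7, 101858331 to 101870788, minus strand) had 5, 198 and 16 reads in control striatum and 6, 21 and 15 in lesioned striatum. It had 9, 3 and 7 reads in control PFC and 7, 11 and 1 in lesioned PFC. Outside control striatal library 2 no library passed 21 reads, and the groups of each region overlapped. The fitted striatal lesion effect was -2.38 (SE 1.24) with that library and 0.50 (SE 0.61) without it, so its direction turned.

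Kl (chromosome 5, 150952607 to 150993817, plus strand), a co-receptor for FGF23 that is also shed into the cerebrospinal fluid, stood at 7.93, 61.3 and 7.91 CPM in control striatum. Lesioned striatum gave 4.67, 5.31 and 6.44 CPM, control PFC 3.26, 2.89 and 2.79 CPM, and lesioned PFC 2.26, 2.47 and 2.66 CPM. The order control striatum, lesioned striatum, control PFC, lesioned PFC held with no overlap between neighbouring groups. It is the only one of the 4 choroid genes whose other libraries also separate by region. The striatal lesion effect was -2.24 (SE 0.83), and -0.54 (SE 0.18) without control striatal library 2.

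Control striatal library 2 was compared with the mean of the other 2 controls of its region. The ratio was 106.0 for Ttr, 21.7 for Kcnj13, 20.6 for Folr1 and 7.73 for Kl. It was 2.32 for Cdh1, 2.26 for Mpzl2, 1.76 for Clic6, 1.15 for Prlr and 1.01 for Foxj1. Among the 36 other choroid plexus genes 26 exceeded a ratio of 2 (median 3.27, range 0.787 to 46.6), among them the water channel Aqp1 (31.7), the lactate carrier Slc16a8 (28.2), the choroid gene Tmem72 (20.1) and the secreted peptide precursor Ecrg4 (11.1). The Slc16a8 ratio rests on a mean of 0.0837 CPM in the other controls, below the floor. The highest ratio, of the bicarbonate transporter Slc4a5, rests on 1 and 12 reads there. Among 41 ependymal and motile cilia genes none exceeded 2 (median 1.05, range 0.761 to 1.94). The desmosome gene Dsp, named after its values were seen, had 508 reads in that library and 13 in each of the other controls. Choroid epithelium genes and ciliary genes thus parted company in this library.

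At the proportions of control striatal library 2, the 480 Ttr reads of lesioned PFC library 2 would go with 3.5 Kcnj13, 2.80 Folr1 and 15 Kl reads. The library had 13, 11 and 41, with Kcnj13 and Kl within the range of the other PFC libraries and Folr1 above their 1 to 9 reads. Tmem72 had 6 reads there, against 3.91 at that proportion and 0 to 4 in the other PFC libraries, and the bicarbonate transporter Slc4a5 had 4, against 3.81 and 0 to 2. Other genes went the other way: the choroid gene Kcne2 had 0, against 1.84, and Dsp had 2, against 7.17 and 4 to 9. Aqp1 (19 reads), the choroid gene F5 (18) and Enpp2 (5181) lay within the range of the other PFC libraries. Ecrg4 had 19, against 11 to 18 in the others. The mean log2 CPM over the 36 choroid genes was 1.80, the highest of the 6 PFC libraries (1.52 to 1.62 in the others). The reads predicted are so few that these counts do not show whether other choroid genes came with Ttr in that library.

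Clic6 (chromosome 16, 92485736 to 92541243, plus strand) stood at 30.0, 46.3 and 22.6 CPM in control striatum and at 24.3, 24.1 and 28.5 CPM in lesioned striatum. In PFC it was 0.543, 0.642 and 1.36 CPM in controls and 0.736, 1.03 and 1.15 CPM after the lesion. Every striatal library lay above every PFC library, and the lesioned and control groups overlapped in both regions. The control striatum against control PFC difference was 5.32 on the log2 scale (SE 0.33).

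Prlr (chromosome 15, 10177238 to 10349180, plus strand) stood at 39.5, 37.5 and 25.3 CPM in control striatum and at 4.73, 34.5 and 27.9 CPM in lesioned striatum. Control PFC held 17, 10 and 5 reads and lesioned PFC 6, 16 and 13, a mean of 0.608 ± 0.251 and 0.689 ± 0.336 CPM (SD, n = 3). Lesioned striatal library 1 stood apart from its group, and the groups overlapped. The striatal lesion effect was -0.61 (SE 0.58), and -0.13 (SE 0.20) without that library. The mean log2 CPM of the hypothalamus and basal forebrain border genes was lowest in the same library, and its part in the Prlr value was not tested. Annotated Prlr exons overlap the gene model Gm21973 on the same strand.

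No listed gene that acts with the prolactin receptor passed the test after the lesion. The list held the growth hormone receptor Ghr, Jak2, the STAT factors and the feedback inhibitors of the Cish and Socs family. Of 9 tested genes 0 passed in striatum after the lesion by edgeR and 0 by DESeq2 (2 at an unadjusted p below 0.05), with a median change of 0.07, and 0 passed in PFC by either tool (0 unadjusted). Over all genes tested, 0.028% passed in striatum and 5.73% in PFC by edgeR, and 3.7% and 6.01% by DESeq2. In controls, Ghr (0.85, SE 0.15) and Stat5b (0.61, SE 0.16) were higher in striatum, and Socs2 (-0.58, SE 0.20, not called when any 1 of 4 control libraries was left out) and Socs3 (-0.95, SE 0.24) lower. Prl, the gene of the ligand, was at 0 in every library.

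Foxj1 (chromosome 11, 116330704 to 116335399, minus strand) stood at 23.2, 23.8 and 23.8 CPM in control striatum and at 15.2, 23.3 and 17.1 CPM in lesioned striatum. It was 3.31, 4.62 and 5.38 CPM in control PFC and 5.83, 5.49 and 5.27 CPM in lesioned PFC. The control striatal values were the tightest of any member, lesioned libraries 1 and 3 lay below them, and library 2 lay within their range. The regions did not overlap, and the control striatum against control PFC difference was 2.43 (SE 0.18).

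The ependymal and motile cilia genes, which Foxj1 switches on, showed the same division by region. Of 41 tested, 37 were higher in control striatum than in control PFC and 0 lower, with a median of 2.35 against 0.02 over all genes, and in that comparison 42.9% of all genes tested were called and 21.7% were called higher in striatum. The axonemal dynein Dnah6 stood at 11.2 ± 1.14 CPM in control striatum and 1.12 ± 0.680 CPM in control PFC (SD, n = 3), a difference of 3.36 (SE 0.35). The central-pair protein gene Spag17 was higher by 4.62 (SE 0.54) and the ependymal marker Tmem212 by 5.0 (SE 0.67). After the lesion, 0 of 41 passed in striatum by edgeR and 0 by DESeq2 (1 unadjusted), and 0 of 24 in PFC by either tool (3 unadjusted). The median striatal change was -0.12, and 0.13 without lesioned striatal library 1, whose mean log2 CPM over the list was 1.43 against 2.49 and 2.18 in libraries 2 and 3. Of the upstream genes of the ciliary programme 6 of 10 were higher in control striatum, among them Trp73 (3.62, SE 0.41) and Myb (3.34, SE 0.47), and 4 of 10 without control striatal library 2, with 1 lower. The RFX factor Rfx4 fell by 0.50 (SE 0.12) in lesioned PFC, a call kept in 2 of 6 fits that left out 1 library.

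**Figure D2:**
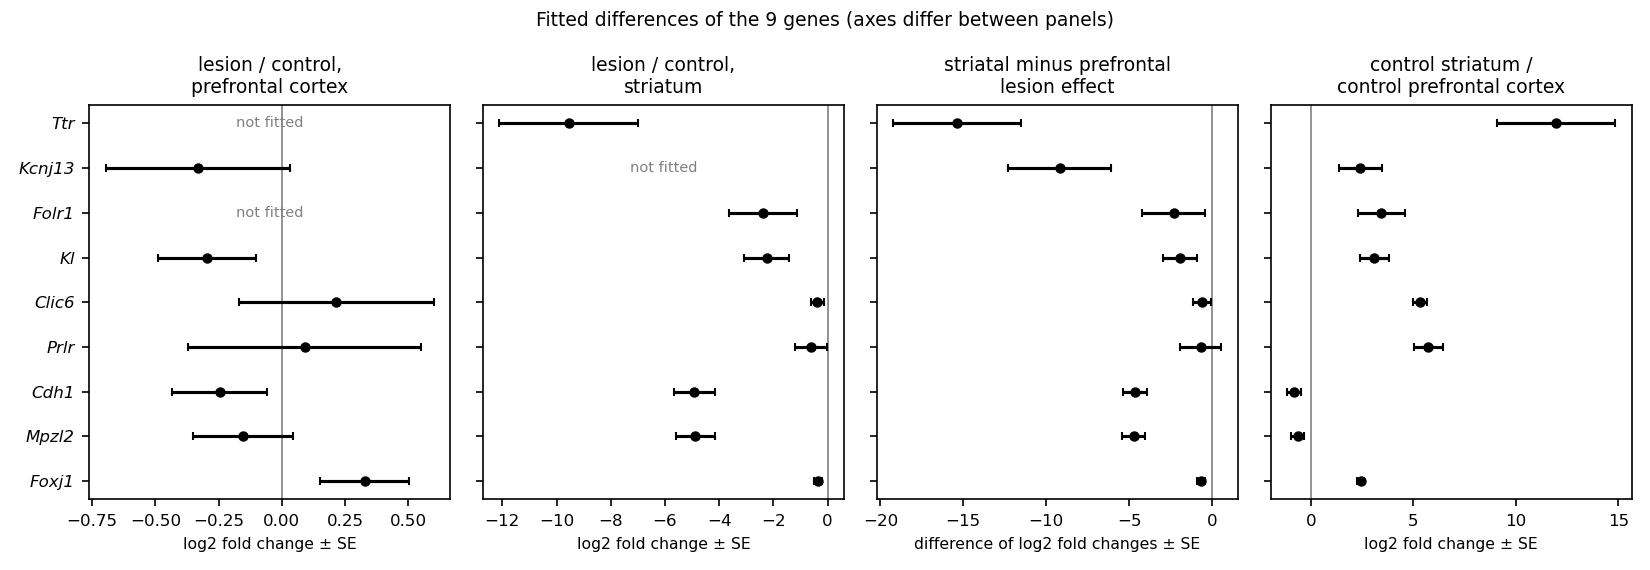
Points are fitted log2 fold changes and bars are SE for the 9 genes in 4 comparisons, with the scale differing between panels and low genes marked as not fitted. The Cdh1 and Mpzl2 effects lie at -4.91 and -4.87 in striatum and at -0.25 and -0.15 in PFC, while the wide bars of Ttr go with its spread between libraries.

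Cdh1 (chromosome 8, 106603351 to 106670246, plus strand) had 19, 54 and 31 reads in control striatum and 0, 1 and 2 in lesioned striatum. Control PFC held 71, 60 and 43 reads and lesioned PFC 50, 50 and 52. In CPM the group means were 3.43 ± 0.467 in control PFC, 2.93 ± 0.270 in lesioned PFC, 1.93 ± 1.05 in control striatum and 0.0569 ± 0.0586 in lesioned striatum (SD, n = 3). The 3 lesioned striatal libraries were below the floor and below every other library, whereas the 2 PFC groups overlapped. Control striatum held 33.3 times the level of lesioned striatum, with an exact 95% binomial interval of 11.1 to 163.9. Without control striatal library 2 the ratio was 23.5 (7.60 to 117.9).

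Mpzl2 (chromosome 9, 45039799 to 45054015, plus strand) ran almost parallel. It had 21, 52 and 28 reads in control striatum, 0, 2 and 1 in lesioned striatum, 52, 51 and 44 in control PFC and 45, 46 and 47 in lesioned PFC. Control striatum held 32.3 times the level of lesioned striatum (exact 95% binomial interval 10.7 to 159.2). Without control striatal library 2 the ratio was 23.1 (7.44 to 115.6). Over the 12 libraries Cdh1 and Mpzl2 had a Pearson r of 0.99 and a Spearman rho of 0.87 on log2 CPM, which is given as a description since the libraries share region and condition. Mpzl2 exons overlap the gene model Gm48840 on the opposite strand.

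These 2 genes were the members whose lesion effects differed most between regions relative to their error. The fitted lesion effect was -4.91 (SE 0.75) in striatum and -0.25 (SE 0.19) in PFC for Cdh1, and -4.87 (SE 0.72) and -0.15 (SE 0.20) for Mpzl2. The striatal effects were -4.39 and -4.37 without control striatal library 2. The difference between these effects was -4.67 (SE 0.72) for Cdh1 and -4.72 (SE 0.69) for Mpzl2. Both were called in the fit over 12 libraries, in which 0.0688% of all genes tested were called lower, and the calls were lost when any 1 of the 6 PFC libraries was left out. That fit shared 1 estimate of the spread between the regions, although the spread was larger in striatum, so its calls can be too many.

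Genes of meningeal fibroblasts were lower in the same libraries. Of 15 tested in striatum, 2 fell after the lesion and 0 rose, with a median of -1.49 over the list against 0.00 over all genes, and 12 were called by DESeq2. Over all genes 0.028% were called by edgeR and 3.7% by DESeq2. Slc22a6, an organic anion transporter, fell by 2.94 (SE 0.25), from 4.74 ± 0.935 to 0.615 ± 0.0778 CPM, and Fmod, the matrix protein fibromodulin, fell by 2.44 (SE 0.22), from 14.9 ± 2.22 to 2.75 ± 0.778 CPM (SD, n = 3). Their adjusted p was 0.0427 each by edgeR's quasi-likelihood test. Neither was called when any 1 of the 6 striatal libraries was left out (adjusted p 0.0686 to 0.225 by edgeR). The list's median was -1.26 without control striatal library 2 and -1.33 without lesioned striatal library 1. The summed level of the 16 genes was 506.6 to 621.7 CPM in control striatum, 166.0 to 315.5 CPM in lesioned striatum and 744.2 to 891.1 CPM across PFC, with no gene of the list at 0 in any library. Slc47a1, which arachnoid cells express, had 9, 30 and 13 reads in control striatum and 2, 3 and 1 in lesioned striatum. In the difference of the lesion effects, 5 of 16 were lower in striatum (Fmod, Slc22a6, Slc6a13, Ogn and Aldh1a2) and 0 higher, against 0.0688% lower over all genes. When 1 of the 12 libraries was left out in turn, Fmod kept that call in 10 fits, Slc22a6 in 9, Slc6a13 in 4, Ogn in 3 and Aldh1a2 in 2. Genes of striatal projection neurons lay the other way in the same libraries, with a mean log2 CPM of 8.20 to 9.53 in lesioned striatum against 7.15 to 7.82 in control striatum and no overlap. Their median change was 1.28 over 11 genes, of which 0 were called by edgeR (10 unadjusted, against 17.3% of all genes tested) and 8 by DESeq2. The part of the cells behind either list in the Cdh1, Mpzl2 and Kcnj13 values was not tested.

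The genes most like Cdh1 across the 12 libraries came from the same list. Among 13396 genes with a mean of at least 1 CPM, the 5 highest Pearson correlations with Cdh1 on log2 CPM were Fmod (0.99), Btbd3 (0.99), Slc22a6 (0.98), Ogn (0.97) and Aldh1a2 (0.97), of which 4 are on the meningeal list. Without the 2 libraries farthest from the median they were 0.95 to 0.97. Lesioned striatal library 3, where Cdh1 was low too, stayed in, so these values say little about likeness among the other libraries. Over the 12 libraries the Spearman rho ran from 0.70 for Ogn to 0.92 for Btbd3. Foxj1 was most like Spag17 (0.99), Dnah6 (0.99), Soga1 (0.99), Ttc21a (0.99) and Dnah3 (0.98), of which 2 are on the cilia list. Among the genes most like Prlr were Trpc7, Arhgap12, Tmem255a and Gabre (0.99 each), none of them on a list. Ttr was most like Ecrg4 (0.90), Rdh5 (0.89), Klk8 (0.89), Nkd2 (0.89) and A2m (0.88), of which Ecrg4 and Rdh5 are on the choroid list, and these correlations came to 0.61 to 0.67 without its 2 farthest libraries. Between members, Ttr correlated with Folr1 at 0.84, Clic6 with Foxj1 at 0.98 and Kcnj13 with Cdh1 at 0.81 and with Ttr at 0.57. By this measure Kcnj13 ran closer to Cdh1 than to Ttr, but Kcnj13 and Cdh1 both lay below the floor in lesioned striatum, which weighs on their value. In control striatal library 2 the ratio to the other controls of the region was 21.7 for Kcnj13, 106.0 for Ttr and 2.32 for Cdh1. The libraries share region, condition and depth, so these values describe likeness only.

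**Figure D3:**
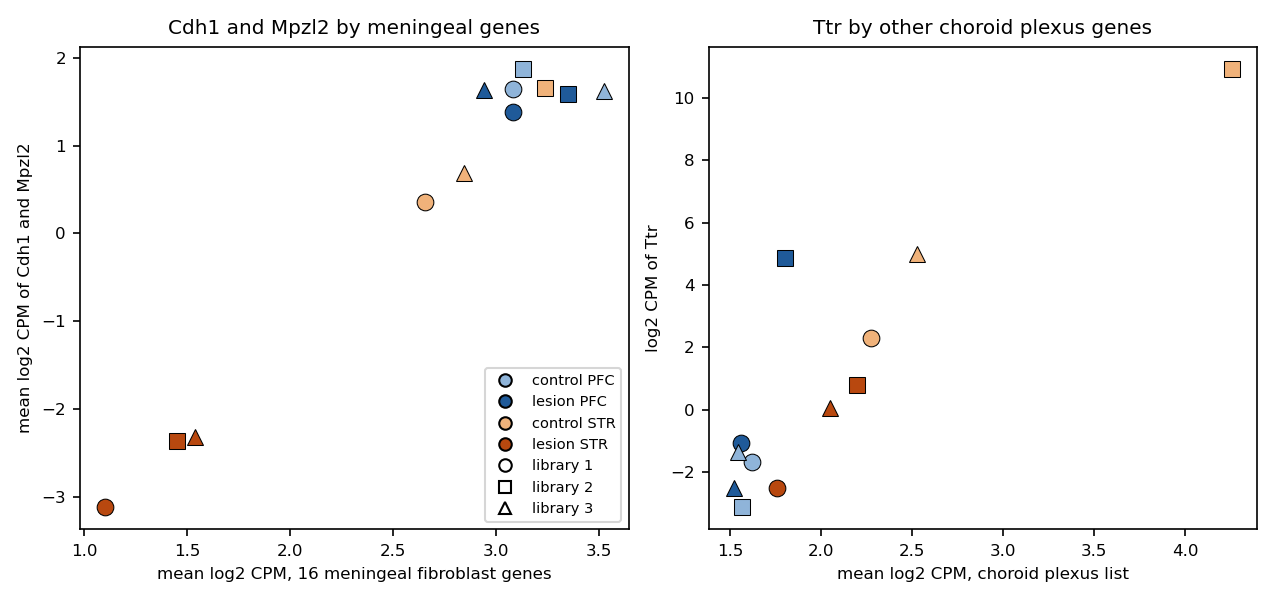
The left panel sets the mean log2 CPM of Cdh1 and Mpzl2 against that of 16 meningeal fibroblast genes, and the right panel sets Ttr against the 36 choroid plexus genes, with 1 point per library. On the left the 3 lesioned striatal libraries lie apart at the low end of both axes, and on the right control striatal library 2 lies apart at the high end while lesioned PFC library 2 has the highest Ttr of PFC and a choroid mean of 1.80, against 1.52 to 1.62 in the other PFC libraries.

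No listed relative or regulator of Cdh1 passed the test in striatum. Of 9 cadherin, catenin and repressor genes tested in striatum after the lesion, 0 passed by edgeR and 0 by DESeq2 (2 unadjusted), with a median of 0.16. Beta-catenin (Ctnnb1), which binds the cadherin tail, fell by 0.16 (SE 0.04) in lesioned PFC, a call kept in 2 of 6 fits that left out 1 library. Among epithelial junction and keratin genes 0 of 7 passed in striatum by either tool (4 unadjusted, against 17.3% of all genes tested). The gene of the zinc finger factor Ovol2 rose by 0.61 (SE 0.12) in lesioned PFC, where it stood at 10.3 ± 0.998 CPM against 6.69 ± 0.308 CPM in control PFC. The call was lost without lesioned PFC library 1 or 2. Ovol2 was near the floor in striatum, with at most 8 reads.

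Over the members as a whole, 7 passed the filter on low counts in PFC, where 5.73% of all genes tested were called. By edgeR's quasi-likelihood test 0 of the 7 were called (0 by DESeq2), and 0 had an unadjusted p below 0.05, against 20.6% of all genes. Their fitted effects ran from -0.33 (SE 0.37) for Kcnj13 to 0.33 (SE 0.18) for Foxj1, and Kl, at -0.30 (SE 0.19), was the only member whose PFC groups did not overlap, being lower after the lesion, as for 11.1% of all genes tested. In striatum 8 passed the filter and 0 were called, with 0.028% called over all genes, 4 at an unadjusted p below 0.05 (17.3% over all genes) and 2 by DESeq2 (Cdh1 and Mpzl2). All 8 fitted effects were below 0. In 5 of the 9 (Ttr, Kcnj13, Kl, Cdh1 and Mpzl2) every lesioned striatal library lay below every control one, and this was so in 12.7% of all genes tested (4 of the 8 members tested).

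Per kilobase of exon, the order of the members in control striatum was Ttr (mean 560.0 CPM per kb), Foxj1 (9.0), Clic6 (8.42), Kcnj13 (4.09), Kl (2.76), Prlr (2.22), Folr1 (1.81), Cdh1 (0.422) and Mpzl2 (0.270). The means of Ttr, Kcnj13, Folr1 and Kl rest on control striatal library 2. Over the other 2 controls the order was Ttr (15.6), Foxj1 (8.96), Clic6 (6.73), Prlr (2.11), Kl (0.849), Kcnj13 (0.517), Cdh1 (0.293), Folr1 (0.240) and Mpzl2 (0.190). Foxj1 and Clic6 did not differ beyond their spread, at 9.0 ± 0.129 and 8.42 ± 3.09 CPM per kb (SD, n = 3). In control PFC the order was Foxj1 (1.69), Cdh1 (0.750), Kcnj13 (0.742), Mpzl2 (0.423), Kl (0.320), Clic6 (0.217), Folr1 (0.162), Ttr (0.132) and Prlr (0.0396). Cdh1 and Kcnj13 did not differ beyond their spread there. Comparing the regions in controls, 6 of 9 members were called higher in striatum and 0 lower, where 21.7% of all genes tested were called higher. The 6 were Ttr, Folr1, Kl, Clic6, Prlr and Foxj1. DESeq2 called 5 members, beside 6207 of the 14545 genes tested. It did not call Ttr or Kl, and it called Cdh1, which edgeR put at -0.83 (SE 0.33), lower in striatum, without calling it. Without control striatal library 2 Folr1 was at 0.58 (SE 0.72) in place of 3.44 (SE 1.15), Kcnj13 turned from 2.42 (SE 1.07) to -0.51 (SE 0.49), and Cdh1 and Mpzl2 were called lower in striatum, at -1.34 (SE 0.28) and -1.14 (SE 0.27).

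Most of the other choroid plexus genes tested were also higher in striatum. In controls 18 of 31 tested were higher in striatum than in PFC and 0 lower, with a median of 1.26, against 21.7% called higher over all genes, and 17 were higher and 2 lower, with a median of 0.69, without control striatal library 2. The homeobox factor Otx2 was higher by 6.26 (SE 0.86). The serotonin receptor Htr2c (2.21, SE 0.13) and the channel Trpm3 (1.81, SE 0.12) were higher too, and both are also made by neurons. After the lesion 0 of 30 passed in striatum by edgeR (12 unadjusted, 5 by DESeq2), with a median of -0.87, and of -0.29 without control striatal library 2. Over all genes tested in striatum 17.3% had an unadjusted p below 0.05 by edgeR and 3.7% were called by DESeq2. In PFC 3 of 26 fell and 0 rose, where 2.28% of all genes tested fell and 3.45% rose. These were the binding protein Igfbp2 (-0.54, SE 0.12), the collagen Col9a3 (-0.43, SE 0.10) and the anion transporter Slco1a4 (-0.31, SE 0.05). When 1 of the 6 PFC libraries was left out in turn, Slco1a4 kept the call in 6 fits, Igfbp2 in 3 and Col9a3 in 1. The falls were not particular to PFC. In striatum Igfbp2 was at -2.50 (SE 0.51), Col9a3 at -0.86 (SE 0.13) and Slco1a4 at -0.34 (SE 0.08), none called, and no difference between the regions passed. Igfbp2 stood at 58.4 CPM in control striatal library 2, against a mean of 18.0 CPM in the other controls and 5.59 CPM in lesioned striatum. Igfbp2 and Slco1a4 are also made by other cells of the cortex and its borders.

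**Figure D4:**
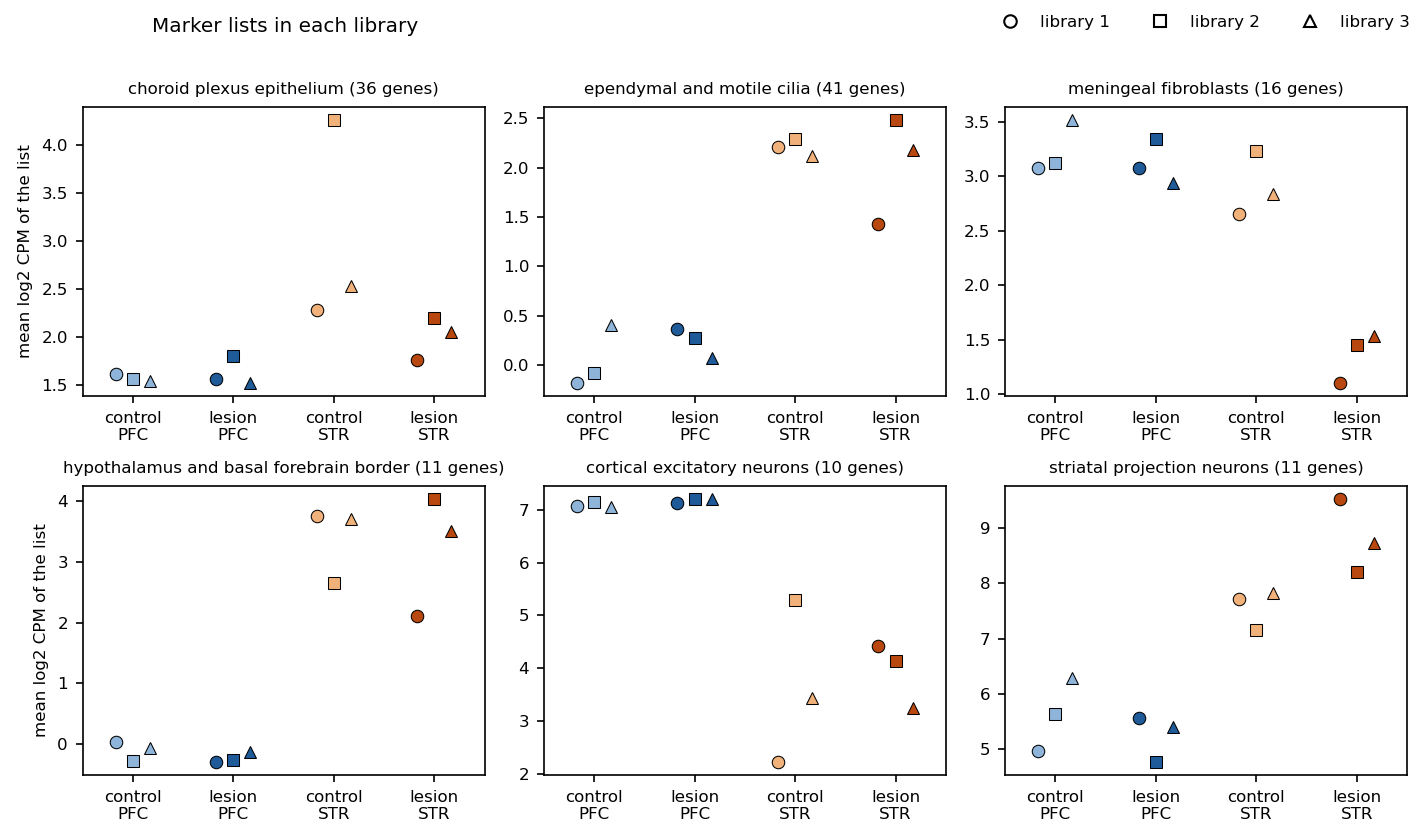
Points are the mean log2 CPM of 6 marker lists in each of the 12 libraries, with symbols for the library number and colours for the group. Control striatal library 2 stands out for choroid plexus (4.26) and cortical genes (5.29), lesioned striatal library 1 for cilia genes (1.43), and lesioned striatum lies lowest for meningeal genes (1.10 to 1.54).

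The listed genes of the pathways that the choroid proteins serve that passed edgeR's test after the lesion all fell in PFC, and none passed in striatum. Transthyretin carries thyroxine, and of 11 genes of thyroid hormone and retinol carriage 2 fell in lesioned PFC (2.28% of all genes did) and 0 rose. In striatum 0 passed by edgeR (5 unadjusted, 2 by DESeq2, against 17.3% and 3.7% of all genes tested). The thyroxine transporter Slco1c1 fell by 0.59 (SE 0.06, adjusted p 1.94e-04 by edgeR), from 86.0 ± 4.74 to 57.7 ± 1.60 CPM (SD, n = 3), and was lower in 3 of 3 lesioned PFC libraries than in any control. The deiodinase Dio2, which activates thyroxine, fell by 0.59 (SE 0.07, adjusted p 4.75e-04 by edgeR), from 145.4 ± 9.01 to 97.2 ± 8.77 CPM, also with no overlap. In striatum Slco1c1 was at -0.52 (SE 0.13, adjusted p 0.183 by edgeR) and Dio2 at -0.06 (SE 0.27), and the differences between the regions did not pass (0.07, SE 0.15, and 0.52, SE 0.29). Both PFC calls held when any 1 PFC library was left out, and neither held with all 12 libraries in 1 fit (adjusted p 0.0514 and 0.301 by edgeR). Among klotho relatives, FGF receptors and sheddases, Fgfr3 fell by 0.43 (SE 0.06) in lesioned PFC, 1 of 6 tested, and 0 of 6 passed in striatum by edgeR (2 unadjusted, 1 by DESeq2). Fgfr3 was at -0.41 (SE 0.09) in striatum, and the difference between the regions was 0.01 (SE 0.11). Among folate uptake and metabolism genes 0 of 9 passed in either region by edgeR or DESeq2 (1 unadjusted in each), with medians of 0.05 in PFC and 0.06 in striatum. Among the Clic and Mpzl relatives 0 of 5 passed by edgeR in PFC (2 unadjusted, 1 by DESeq2) or in striatum (1 unadjusted, 0 by DESeq2).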

How the data were processed

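The authors deposited 1 table of read counts per gene symbol for all 12 libraries. Per the labels' protocols, mRNA from 500 ng of total RNA (integrity number at least 8.9) went into stranded libraries that were sequenced as 101 bp pairs. STAR 2.7.1a, featureCounts and the mm10 build are named in the submitters' processing notes, and the annotation, strand setting and treatment of multiply mapped reads were not given in the sources used here. In the deposited counts, 1830 genes held only multiples of 11, exactly the genes at 0 in lesioned PFC library 1. They carried 0.144% of counts and were left out of the main fits, among them choroid and keratin genes such as Cldn2, Krt18 and Krt5.

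Counts were fitted with edgeR 4.0.16 (filterByExpr, TMM, quasi-likelihood test, two-sided, Benjamini-Hochberg over all genes tested, calls at adjusted p below 0.05): the 6 PFC and the 6 striatal libraries separately for the lesion, and all 12 together for the difference of the lesion effects and for the regions. A fold or effect without another name is a log2 fold change of lesion over control. CPM was scaled by TMM over the 12 libraries, log2 CPM used a prior count of 2, and values per kb used exon lengths from GENCODE vM21 (GRCm38, the mm10 assembly), which also gave the gene positions. The fit over 12 libraries used 1 estimate of the spread for both regions, a biological coefficient of variation (relative spread between libraries) of 11.3%. The separate fits gave 5.78% in PFC and 14.9% in striatum. Earlier results of these data showed that a shared estimate gives too many false calls in striatum. The fits were tested on simulated data. DESeq2 1.42.0, limma-voom (limma 3.58.1), other normalization and filters, a replicate block and leaving out each library were tried as alternatives. The 9 genes and the 14 other lists were chosen with earlier results of these data known. Besides the members, the 4 most abundant genes of a list, up to 3 called genes with the smallest p per list and comparison, and the 5 genes most like Ttr, Prlr, Cdh1 and Foxj1 could be named, and other names were chosen after their values were seen. A gene that this rule names for Prlr is not reported here. The share of all genes called stands beside the first list count of each comparison, the median change over all genes was within 0.02 of 0, and no set test was run. For every list count at an unadjusted p below 0.05 by edgeR, the share over all genes was 20.6% in PFC and 17.3% in striatum. The replicate numbers were not used to pair the libraries in the main fits. Deviations of same-numbered libraries from their group means correlated at -0.112 to 0.0921. With 3 libraries per group and uneven striatal libraries, these values cannot show whether same-numbered libraries share mice.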

Additional observations from a re-analysis of the deposited data

Results flagged for a closer look

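Cdh1 and Mpzl2 were the members whose lesion effect differed between the regions by a test of the difference itself. The striatal effect minus the PFC effect was -4.67 for Cdh1 (SE 0.72, adjusted p 0.0393 by edgeR) and -4.72 for Mpzl2 (SE 0.69, adjusted p 0.0378 by edgeR). In all 3 lesioned striatal libraries both genes lay below all 9 other libraries. They had been picked with this contrast known, so the test describes them and adds no independent support. The fit also shared 1 estimate of the spread between the regions, although the spread was larger in striatum. Both calls were lost without any 1 of the 6 PFC libraries, without lesioned striatal library 1 and without lesioned striatal library 3, and Cdh1 alone was lost without control striatal library 3. Across all libraries left out in turn, the difference stayed between -5.53 and -4.16 for Cdh1 and between -5.52 and -4.22 for Mpzl2, with adjusted p of 0.0257 to 0.145 and 0.0195 to 0.120 by edgeR. DESeq2 gave -4.83 (adjusted p 5.22e-04) and -4.88 (adjusted p 4.07e-04).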

How the results depend on the processing

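No member's called value changed sign under any alternative run. The count of members called in PFC was 0 under every alternative. In striatum it was 0, and 2 with DESeq2 and 4 with all 12 libraries in 1 fit, where Ttr, Kcnj13, Cdh1 and Mpzl2 were called. For the difference of the lesion effects it was 2, and 0 with the steps of 11 kept (adjusted p 0.0626 for Cdh1 and 0.0602 for Mpzl2 by edgeR) and 0 with limma-voom (0.0641 and 0.0520), and the cause was not tested. Leaving out 1 library gave 0 to 0 members in PFC and striatum, 0 to 2 for the difference and 5 to 7, beside 6, for the regions. Of 563 values of single members under an alternative, 531 stayed within the spread between libraries and 32 moved beyond it. The sign turned for Folr1 in striatum and in the difference and for Kcnj13 between the regions, each without control striatal library 2, and for Prlr and Clic6 in PFC near 0. Over all genes the calls numbered 803 in PFC, 195 to 1010 when 1 library was left out and 30 with all 12 libraries in 1 fit, where no named list gene called in PFC was called, and 4 in striatum, against 1040 with all 12 libraries and 529 with DESeq2. They numbered 12 for the difference, against 116 with DESeq2 and 0 to 172 when 1 library was left out. The replicate block left 0, 0, 2 and 6 members called in PFC, striatum, the difference and the regions, and the calls over all genes at 634, 0, 6 and 6099. Whether the replicate numbers pair the libraries is not known. Depth limits Ttr in PFC, Folr1 outside 1 library, and Cdh1, Mpzl2 and Kcnj13 in lesioned striatum, where 3 reads or fewer per group were counted.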
